A study of Mus musculus with 6 samples.

Results

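Long noncoding RNAs (lncRNAs), 8 in number, were examined in CFPAC-1 cells, a human pancreatic adenocarcinoma (PAAD) cell line, after knockdown of KRT7, the gene of the intermediate filament protein keratin 7. They were NEAT1 (ENSG00000245532), MALAT1 (ENSG00000251562), KCNQ1OT1 (ENSG00000269821), H19 (ENSG00000130600), UCA1 (ENSG00000214049), GAS5 (ENSG00000234741), SNHG1 (ENSG00000255717) and PVT1 (ENSG00000249859). The 8 were chosen by name and identifier from the 30543 genes of the deposited table and all 8 were among the 15736 genes kept by the filter on low counts. One group of 3 libraries came from cells given a siRNA against KRT7 (si-KRT7) and the other group of 3 from cells given a control siRNA (si-Control). Both groups were the same cell line, and no other allele or agent is named for either. The sources used here list a pair of KRT7 siRNA duplexes without saying which was used for the sequenced cells. They give neither the time of harvest nor whether the libraries of a group came from separate cultures. The paper's legend for the figure with the sequencing results cites 3 independent experiments for data given as means, without naming the libraries. The p-values therefore measure the spread between these libraries, which may be technical. The organism is given as mouse in the labels, although CFPAC-1 is human and every identifier in the table is human. KRT7 and the defining markers of ductal, stromal and immune cells were not looked up here, because no human table of gene names was used.

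A lncRNA acts as RNA and is not translated into a protein of known function. MALAT1 and NEAT1 are neighbours in the genome and stay in the nucleus: MALAT1 gathers in nuclear speckles, which store splicing factors, and NEAT1 is the scaffold of paraspeckles, bodies that retain RNAs and proteins. KCNQ1OT1 is a nuclear antisense transcript that silences genes of an imprinted cluster. GAS5 and SNHG1 are host genes, whose introns are cut into small nucleolar RNAs (snoRNAs) while the spliced exons are removed by nonsense-mediated decay. H19, an imprinted RNA, and PVT1, a neighbour of MYC, carry microRNAs, and UCA1 is a largely cytoplasmic RNA first described in bladder cancer. Several of these RNAs, among them MALAT1, H19, UCA1 and PVT1, are often abundant in carcinomas.

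Reads were counted per gene, and the libraries held between 31932572 and 36315802 counts in si-Control cells and between 28208896 and 36218243 in si-KRT7 cells. Levels are given as CPM, the count of a gene scaled to a common library total, after normalization with the TMM method, which scales each library by a factor set over all genes and gave factors between 0.976 and 1.03. A difference was called when the p of edgeR's quasi-likelihood test, adjusted by the Benjamini-Hochberg method over all genes tested, was under 0.05. Over all genes, si-KRT7 replicate 2 stood apart from replicates 1 and 3: the median absolute difference in log2 CPM was 0.337 between replicate 2 and the mean of the other 2, and 0.0941 between replicates 1 and 3. The common biological coefficient of variation of the 5 other libraries was 0.0485, and 0.130 when it was included. Each result is therefore given with and without that library. It was set apart with earlier results of these data known. An adjusted p without it leaves out the spread that it adds and is likely too small. In bulk RNA, fewer cells with a transcript and less of it per cell cannot be told apart. Levels were not compared between genes, since no gene lengths were used.

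With all 6 libraries, NEAT1 was higher in si-KRT7 cells and was the only one of the 8 lncRNAs to pass the test. This is 1 of 8, where 2.07% of all genes tested were called, 0.712% higher and 1.35% lower. No member passed the stricter rule that also asked for an absolute log2 fold change over 1, which 0.292% of genes met. The other 7 were MALAT1 and KCNQ1OT1 with estimates above 0 and UCA1, H19, SNHG1, GAS5 and PVT1 with estimates below 0. The groups did not overlap in 4 of the 8, NEAT1, MALAT1, UCA1 and SNHG1, while 24.4% of all genes tested showed no overlap, 11.3% with si-KRT7 higher and 13.0% with si-KRT7 lower. The median log2 fold change was -0.07 over the 8 lncRNAs and 0.01 over all genes tested, and the median absolute change was 0.36 and 0.18. The median of the 8 was 0.06 without si-Control replicate 2 and -0.13 without si-KRT7 replicate 2. The plot of levels by library shows these values.

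**Figure D1:**
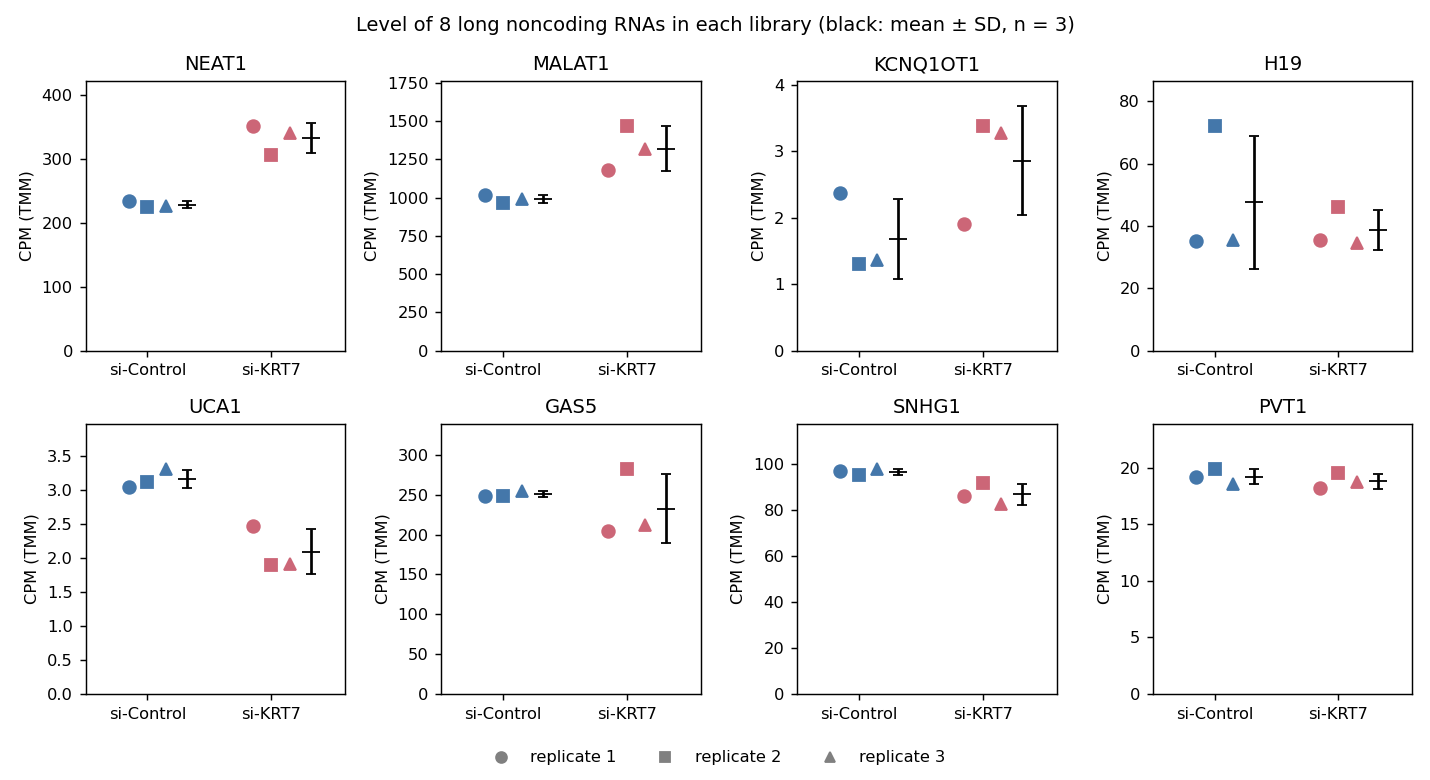
Level of each lncRNA in CPM (vertical axis, starting at 0, a separate scale for each gene) in si-Control and si-KRT7 cells, with 1 point per library and the mean ± SD (n = 3) in black. NEAT1 and MALAT1 lay higher in all 3 si-KRT7 libraries, H19 had 1 high si-Control library at 72.1 CPM, and GAS5 had 1 si-KRT7 library above and 2 below the si-Control libraries.

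NEAT1, the paraspeckle scaffold, was counted 7100 to 13035 times per library. Its level was 234, 225 and 226 CPM in si-Control replicates 1, 2 and 3 and 351, 306 and 341 CPM in si-KRT7 replicates 1, 2 and 3. Every si-KRT7 library lay above every si-Control library, with replicate 2 the lowest of the 3. The means were 228 ± 5.32 CPM (SD, n = 3) and 333 ± 23.4 CPM (SD, n = 3), a 1.46-fold higher level. The log2 fold change was 0.54 (standard error 0.08, 95% interval 0.37 to 0.72, adjusted p = 0.0140 in edgeR). An exact permutation of the libraries (two-sided) gave p = 0.1 and cannot give less with this design. The estimate stayed between 0.50 and 0.56 but the call was lost when si-Control replicate 1, 2 or 3 or si-KRT7 replicate 1 or 3 was left out, with an adjusted p in edgeR of 0.129, 0.137, 0.139, 0.0599 and 0.0850 in that order. In the same order, those fits called 6, 6, 10, 87 and 36 genes in all, against 325 with all 6 libraries. Without si-KRT7 replicate 2 the log2 fold change was 0.60 (adjusted p = 2.14e-12 in edgeR), in a fit that called 6944 of 16202 genes.

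MALAT1, the nuclear speckle RNA, made up 0.0960% to 0.143% of each library, with 31169 to 43796 counts. It stood at 1019, 964 and 991 CPM in si-Control replicates 1, 2 and 3 and at 1179, 1467 and 1314 CPM in si-KRT7 replicates 1, 2 and 3. The groups did not overlap, and here replicate 2 of si-KRT7 was the highest library. The means were 991 ± 27.4 CPM and 1320 ± 144 CPM (SD, n = 3 each), and the log2 fold change of 0.41 (standard error 0.09, 95% interval 0.21 to 0.62) missed the limit with an adjusted p of 0.0582 in edgeR. Without si-KRT7 replicate 2 the estimate was smaller, 0.33, and passed the test (adjusted p = 1.24e-07 in edgeR). It also passed in the DESeq2 Wald test (adjusted p = 0.00455), with library size as the only normalization (adjusted p = 0.0316 in edgeR) and without a filter on counts (adjusted p = 3.00e-04 in edgeR). MALAT1 passed in only 4 of the 9 alternatives that kept all libraries, and the adjusted p over these 9 ran from 8.39e-06 to 0.149.

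KCNQ1OT1, the imprinted antisense RNA, was counted only 43 to 101 times per library. Its level was 2.38, 1.30 and 1.37 CPM in si-Control replicates 1, 2 and 3 and 1.91, 3.38 and 3.28 CPM in si-KRT7 replicates 1, 2 and 3. The groups overlapped, since si-Control replicate 1 lay above si-KRT7 replicate 1. The estimate was the largest of the 8 in size, a log2 fold change of 0.75, but its 95% interval ran from 0.03 to 1.48 and the adjusted p was 0.251 in edgeR. The standard deviation among si-Control libraries was 35.9% of their mean, and among si-KRT7 libraries 28.7%, whereas counting error alone at the mean count would give 11.7%. Without si-KRT7 replicate 2 the estimate was 0.61 (adjusted p = 0.0939 in edgeR). It overlaps a protein-coding gene on the other strand, and without a stated strand setting its reads cannot be told apart from those of that gene.

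**Figure D2:**
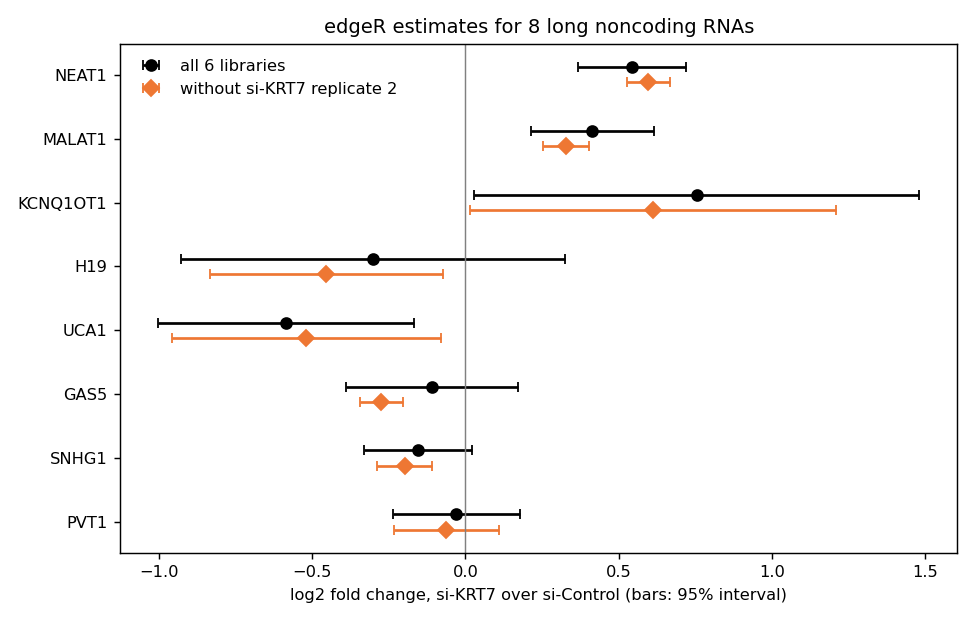
Log2 fold change of si-KRT7 over si-Control (horizontal axis) for each lncRNA, estimated by edgeR from all 6 libraries (black circles) and without si-KRT7 replicate 2 (orange diamonds), with 95% intervals. The intervals of 7 of the 8 were narrower without that library, that of UCA1 being wider, and the estimate of GAS5 moved from -0.11 to -0.27.

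GAS5 and SNHG1, the snoRNA host genes, both had estimates below 0 with all 6 libraries and neither passed the test. GAS5 stood at 248, 249 and 255 CPM in si-Control replicates 1, 2 and 3, a standard deviation of 1.41% of the mean. It stood at 204, 282 and 211 CPM in si-KRT7 replicates 1, 2 and 3. Replicates 1 and 3 thus lay below all si-Control libraries, at 81.3% and 84.4% of their mean, and replicate 2 above all of them, at 113%. Its log2 fold change was -0.11 with all libraries (95% interval -0.39 to 0.17, adjusted p = 0.685 in edgeR) and -0.27 without si-KRT7 replicate 2 (standard error 0.03, adjusted p = 5.35e-07 in edgeR). Among the 8, GAS5 was the one member with this position outside the si-Control range on opposite sides, which 24.5% of all genes tested also showed.

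SNHG1 stood at 97.0, 95.2 and 97.8 CPM in si-Control replicates 1, 2 and 3 and at 86.2, 91.7 and 82.6 CPM in si-KRT7 replicates 1, 2 and 3. All 3 si-KRT7 libraries lay below the si-Control libraries, with replicate 2 nearest to them. Its log2 fold change was -0.15 (standard error 0.08, 95% interval -0.33 to 0.02, adjusted p = 0.329 in edgeR). It was -0.20 without si-KRT7 replicate 2, where it passed the test (adjusted p = 6.86e-04 in edgeR).

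UCA1, with 52 to 113 counts per library, was at 3.04, 3.12 and 3.31 CPM in si-Control replicates 1, 2 and 3. In si-KRT7 replicates 1, 2 and 3 it was at 2.48, 1.89 and 1.91 CPM, below every si-Control library. For UCA1, replicate 2 lay beside replicate 3. The estimate was -0.58 on the log2 scale (standard error 0.18, adjusted p = 0.142 in edgeR), a level 0.667 times that of si-Control cells with a 95% interval of 0.499 to 0.891, and at these counts the counting error of 1 library was 10.7% at the mean count. Without si-KRT7 replicate 2 the adjusted p was 0.0517 in edgeR, just over the limit.

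H19, the imprinted microRNA host gene, was at 35.2, 72.1 and 35.5 CPM in si-Control replicates 1, 2 and 3 and at 35.4, 46.1 and 34.5 CPM in si-KRT7 replicates 1, 2 and 3. Of the 6 libraries, 4 lay between 34.5 and 35.5 CPM. The high values were those of replicate 2 in each group, from 2611 and 1269 counts, and the exact 95% Poisson interval of the first, 2512 to 2713, covers counting error only. The log2 fold change was -0.30 (95% interval -0.93 to 0.33, adjusted p = 0.604 in edgeR), and its direction depended on 1 library: without si-Control replicate 2 it was 0.13 (adjusted p = 0.783 in edgeR). Without si-KRT7 replicate 2 it was -0.45 with an adjusted p of 0.0498 in edgeR, a call in a fit that kept the high si-Control library.

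PVT1, the other microRNA host gene, was the most even of the 8. It was at 19.2, 19.9 and 18.6 CPM in si-Control replicates 1, 2 and 3 and at 18.2, 19.5 and 18.7 CPM in si-KRT7 replicates 1, 2 and 3, with overlapping groups. Its log2 fold change was -0.03 (standard error 0.09, adjusted p = 0.891 in edgeR), and its 95% interval of -0.24 to 0.18 corresponds to a level between 0.848 and 1.13 times that of si-Control cells. Leaving out si-KRT7 replicate 2 moved the estimate to -0.06 (adjusted p = 0.594 in edgeR).

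**Figure D3:**
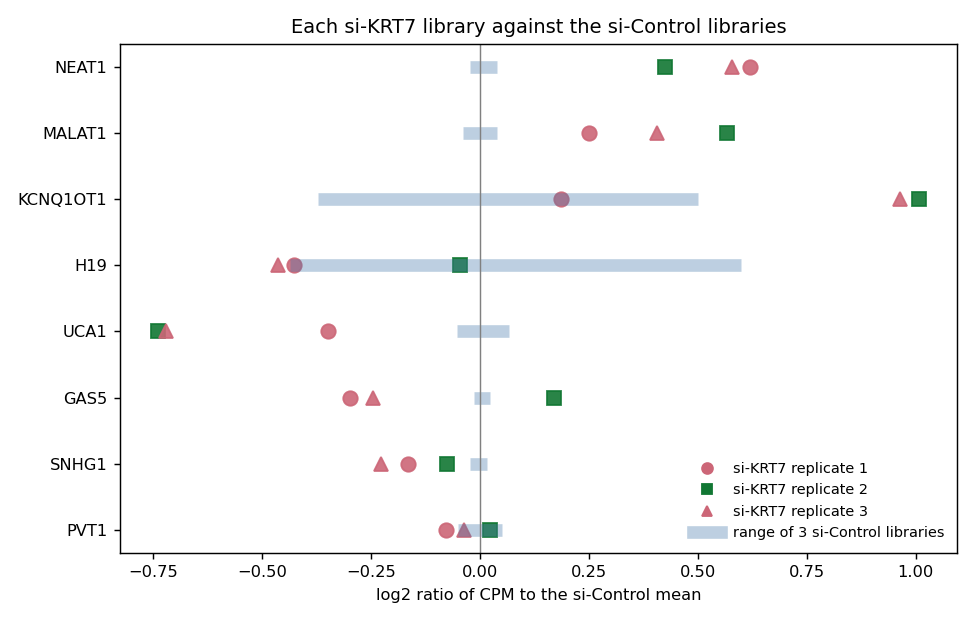
Log2 ratio of the CPM of each si-KRT7 library to the si-Control mean (horizontal axis) for each lncRNA, with the range of the 3 si-Control libraries as a blue bar. Replicate 2 (green squares) lay beyond the other si-KRT7 libraries for MALAT1, and just past replicate 3 for UCA1 and KCNQ1OT1. It lay between the other si-KRT7 libraries and the si-Control libraries for NEAT1 and SNHG1. For GAS5 it lay on the other side of the si-Control range.

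Replicate 2 of si-KRT7 did not differ from replicates 1 and 3 in the same way across the 8 lncRNAs. Relative to the si-Control mean, its log2 CPM differed by 0.42 for NEAT1, 0.57 for MALAT1 and 1.04 for KCNQ1OT1, where the mean of replicates 1 and 3 differed by 0.60, 0.33 and 0.61. All 3 nuclear RNAs were thus above the si-Control mean in replicate 2 as well. For GAS5 the same differences were 0.17 in replicate 2 and -0.27 in replicates 1 and 3, and for SNHG1 -0.08 and -0.20. By mean log2 CPM, replicate 2 lay on the other side of the si-Control mean from replicates 1 and 3 for 3 of the 8, H19, GAS5 and PVT1, or 37.5%, against 49.5% of all genes tested. H19 did so on that scale only, since its 46.1 CPM in replicate 2 was 96.9% of the si-Control mean of 47.6 CPM. The median absolute difference between replicate 2 and the mean of replicates 1 and 3 was 0.218 over the 8 and 0.337 over all genes tested. These are descriptions of 1 library, without a test.

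Without replicate 2, 5 of the 8 lncRNAs passed the test, NEAT1 and MALAT1 higher and H19, GAS5 and SNHG1 lower. Of the 16202 genes that the filter kept in that fit, 42.9% were called, 20.9% higher and 22.0% lower. The share of the 8 that was called is thus read against a background of that size. No member had an absolute log2 fold change over 1 as well, a rule that 2.20% of genes met.

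Ratios of counts within a library do not depend on the normalization. The ratio of NEAT1 to MALAT1 counts was 0.230, 0.233 and 0.228 in si-Control replicates 1, 2 and 3. It was 0.298, 0.209 and 0.259 in si-KRT7 replicates 1, 2 and 3, above the si-Control libraries in replicates 1 and 3 and below them in replicate 2. On the log2 scale the mean difference was 0.13 (two-sided exact permutation p = 0.4), and 0.27 without replicate 2. The ratio of GAS5 to SNHG1 counts was 2.56, 2.62 and 2.60 in si-Control replicates and 2.37, 3.08 and 2.56 in si-KRT7 replicates 1, 2 and 3. The log2 difference was 0.03 (two-sided exact permutation p = 0.9), and -0.08 without replicate 2. For each pair the si-Control libraries lay within a narrow range, with a standard deviation of 0.02 on the log2 scale, whereas the si-KRT7 libraries spread by 0.26 for NEAT1 to MALAT1 and by 0.19 for GAS5 to SNHG1. Neither ratio differed between the groups beyond that spread.

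**Figure D4:**
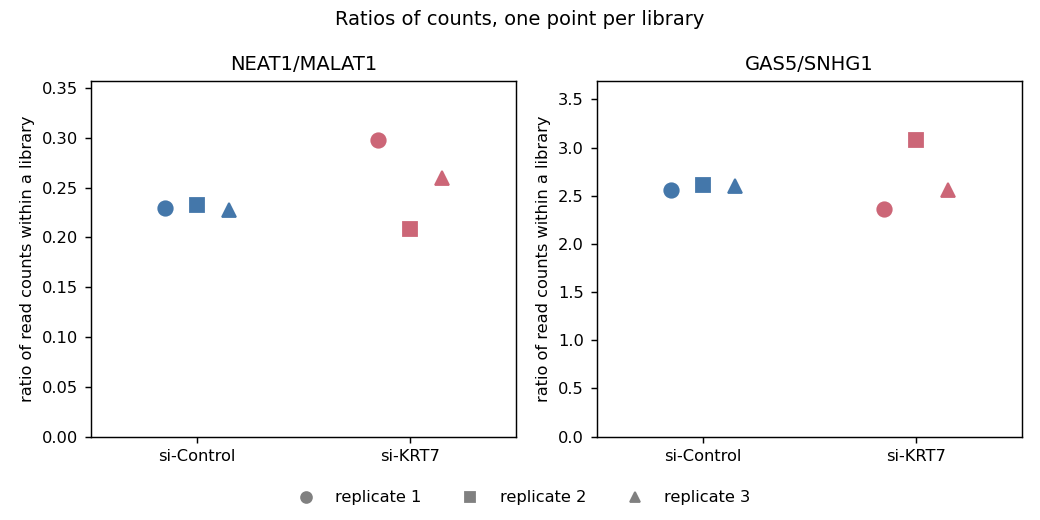
Ratio of the read counts of NEAT1 to MALAT1 (left) and of GAS5 to SNHG1 (right) within each library (vertical axes start at 0), 1 point per library. The si-Control libraries lay close together, and si-KRT7 replicate 2 had the lowest NEAT1 to MALAT1 ratio, 0.209, and the highest GAS5 to SNHG1 ratio, 3.08.

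The libraries were made from RNA captured by its poly(A) tail. MALAT1 and the long form of NEAT1 end in a genome-encoded triple helix in place of an ordinary poly(A) tail, and KCNQ1OT1 is a very long, unspliced transcript. Their counts therefore describe the molecules that were captured, and the count of NEAT1 does not separate its short form from its long form. The position of the 8 among all genes is shown by the plot of change against level.

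**Figure D5:**
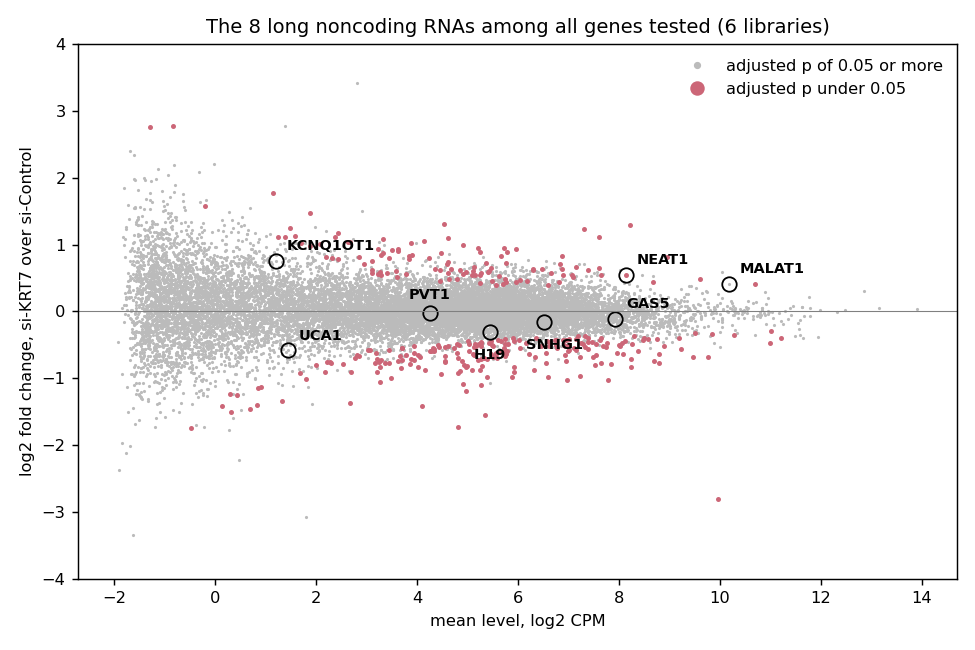
Log2 fold change of si-KRT7 over si-Control (vertical axis) against mean level in log2 CPM (horizontal axis) for the 15736 genes tested with all 6 libraries, genes with an adjusted p under 0.05 in red and the 8 lncRNAs circled and named. NEAT1 was the only circled gene with an adjusted p under 0.05, and no lncRNA lay beyond a log2 fold change of 1 in either direction.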

How the data were processed

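RNA-seq libraries of CFPAC-1 cells, 3 of si-Control and 3 of si-KRT7, were analysed. The authors deposited the number of reads on each gene as raw counts, with no scaling between libraries. The submitters' processing notes list STAR 2.7.11b and the mouse build GRCm39, while all 30543 identifiers are human, and the counting tool, annotation and strand setting are not given in the sources used here. No per-sample column was left unused. Names came with the list of the 8 lncRNAs, and 0 identifiers matched the mouse name table used here, so related gene lists (other host genes, paraspeckle proteins, decay factors) and sequences were not analysed here. The members and lists were chosen with earlier results of these data known.

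In edgeR 4.0.16 under R 4.3.3, filterByExpr removed low counts, TMM set the library factors and the quasi-likelihood test (glmQLFit, glmQLFTest) was applied, with Benjamini-Hochberg adjustment. Standard errors were derived from the F statistic and are approximate, as are the intervals. Log2 CPM used a prior count of 2. All 8 lncRNAs, and outside the list the gene most like NEAT1 and the gene most like MALAT1, were to be named. Alternatives were DESeq2 1.42.0, limma 3.58.1 with voom, other normalizations and filters, each library left out and the replicate number as a block. The edgeR, DESeq2 and limma fits were tested on simulated counts drawn with a common spread for all genes. No simulated library stood apart as si-KRT7 replicate 2 did, so that case was not tested. Intervals from counts cover counting error only. No 2 libraries differed by sampling noise alone: the lowest mean chi-square per gene was 3.70, with a value near 1 for sampling noise. That value cannot tell separate libraries of the same culture from separate cultures.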

Additional observations from a re-analysis of the deposited data

How the results depend on the processing

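KCNQ1OT1 and UCA1 had the lowest counts, 101 and 113 at most in a library, where counting error at the mean count was 11.7% and 10.7%. No alternative moved the median log2 fold change of all genes by more than 0.1.

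Of the 15736 genes tested, the main fit gave 325 with an adjusted p under 0.05 (112 higher, 213 lower) and 46 past both limits. It called 1 of the 8 lncRNAs. Each fit in this paragraph, except that without a filter, started from the same genes. With the DESeq2 Wald test these were 1148 (529 higher, 619 lower), 103 and 2. The numbers in limma-voom weighted by sample quality were 6858 (3426 higher, 3432 lower), 443 and 5. Without a filter on low counts they were 1347 (689 higher, 658 lower), 154 and 2. Library size only gave 315 genes (114 higher, 201 lower), 47 past both limits and 2 lncRNAs. With the replicate block they were 76 (26 higher, 50 lower), 25 and 0, and NEAT1 had a log2 fold change of 0.54 with an adjusted p of 0.0639. The deviations of same-numbered libraries correlated at 0.0520, -0.0798 and -0.0728 over genes, which does not pair them. The cause of these differences was not tested.

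Across the fits without 1 library, the number of genes called ran from 6 to 6944, higher from 2 to 3379, lower from 4 to 3565, past both limits from 6 to 356, and lncRNAs called from 0 to 5. Each highest value came without si-KRT7 replicate 2, and the other 5 fits called none of the 8 lncRNAs. Few genes of any kind were called in those 5 fits. The numbers were 6, 6 and 10 without si-Control replicates 1, 2 and 3, and 87 and 36 without si-KRT7 replicates 1 and 3. The log2 fold change ran from 0.50 to 0.60 for NEAT1, from 0.33 to 0.49 for MALAT1, from 0.59 to 1.09 for KCNQ1OT1, from -0.48 to 0.13 for H19, from -0.73 to -0.52 for UCA1, from -0.27 to -0.025 for GAS5, from -0.20 to -0.12 for SNHG1 and from -0.06 to -0.01 for PVT1. H19 was the lncRNA whose direction turned, to 0.13 without si-Control replicate 2. The ratio differences ran from 0.01 to 0.27 for NEAT1 to MALAT1 and from -0.08 to 0.11 for GAS5 to SNHG1.

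MALAT1 passed with a log2 fold change of 0.42 in the DESeq2 Wald test, 0.43 with library size only, 0.35 with sample quality weights and 0.40 without a filter. With sample quality weights UCA1 (-0.55), GAS5 (-0.25) and SNHG1 (-0.20) passed too. Of the alternatives that kept all libraries, 8 of 9 kept the call of NEAT1, the replicate block being the exception, and 4 of 9 called MALAT1.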

Other observations

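Over the 6 libraries, the gene outside the list whose log2 CPM was most like that of NEAT1 was ENSG00000110917 (Pearson r = 0.999 among 12454 genes with a mean of at least 50 counts), with a log2 fold change of 0.22 and an adjusted p of 0.127 in edgeR. The gene most like MALAT1 was ENSG00000275216 (r = 0.990), whose own log2 fold change was 0.21, with an adjusted p of 0.248 in edgeR. The points are 2 groups of 3 libraries, so these values are descriptions: 260 genes had an r over 0.95 with NEAT1 and 74 with MALAT1. Within the list, MALAT1 and KCNQ1OT1 were the most alike of the 3 nuclear RNAs (r = 0.867), and UCA1 ran opposite to MALAT1 (r = -0.974).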
